A study of Rattus norvegicus with 36 samples.

Results

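In the nucleus accumbens of cocaine-treated rats, 95 of 31546 counted genes stood above saline by about the same amount after 3 injections of cocaine on a single day and after 15 injections over 5 days. They are called raised here for that pattern alone, and they were selected on the values themselves. A gene was kept when its mean over all pools was at least 40 normalised counts, when every cocaine pool lay above every saline pool, and when the ratio of group means to saline was at least 0.8 on the log2 scale in both cocaine groups. The ratio of the 2 cocaine means also had to lie within 0.3 of zero on the log2 scale. A normalised count is the number of reads on a gene in a pool divided by the median-of-ratios size factor of that pool. Of the genes, 13607 had a mean of at least 40, and 132 of them met both limits against saline, of which 95 met the limit between the cocaine groups.

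Male Sprague-Dawley rats aged 8 weeks received intraperitoneal injections, 3 per day for 5 days, and were killed 24 h after the last one. Sal-Sal rats had 15 injections of serum (saline), Coc-Coc rats had 15 injections of cocaine at 20 mg/kg, and Sal-Coc rats had saline first and 3 injections of cocaine at the same dose on the last day. The labels give 13 saline injections for Sal-Coc and the study's methods imply 12, the labels name 1 rat per library where the methods give pools of 2 rats, and the phenotype labels ("vulnerable", "saline") do not match the descriptions of Coc-Coc and Sal-Coc. Each group had 3 pools of bilateral nucleus accumbens, so that Sal-Coc and Coc-Coc differed in the days of cocaine but not in the time since the last dose.

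Totals ranged from 36372166 to 42449841 counts per pool, each summed over 4 technical replicates. The tables give Ensembl identifiers only. Symbols were joined to them through published ratios of group means and exist only for genes in the study's lists of changed genes, here 1506 genes, 87 of the 95 raised genes among them. For that reason none of the 13 markers of medium spiny neurons, the main cell type of this tissue, could be looked up, and the labelled tissue could not be checked by its defining markers. The levels and ratios of the chosen genes belong to the contrasts that chose them, so they are given as a description, and the calls of edgeR on these contrasts are counted but not read as support.

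The nucleus accumbens is the ventral part of the striatum and receives dense dopamine input from the midbrain. Cocaine blocks the reuptake of dopamine, and repeated exposure is known to change transcription in its medium spiny neurons, in part through chromatin. Genes that respond to drug exposure may keep responding, adapt or strengthen as injections are repeated, and the genes below are those whose levels were alike at both points.

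The raised genes had a median ratio to Sal-Sal of 1.02 on the log2 scale in Sal-Coc (range 0.81 to 1.79) and of 0.93 in Coc-Coc (range 0.80 to 1.72). Over all genes tested the medians were -0.02 and -0.01. In 28 of the 95 genes both ratios were at least 2-fold. In 7 of them each single cocaine pool was at least 2 times the Sal-Sal mean. The lowest cocaine pool was at least 1.5 times the highest Sal-Sal pool in 25 genes, led by Pla1a at 2.02 times. It was under 1.1 times in 3 genes, with Tdrd9 the narrowest at 1.005 times. As tissue was sequenced in bulk, a larger number of cells of a type and more RNA per cell cannot be told apart.

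**Figure D1:**
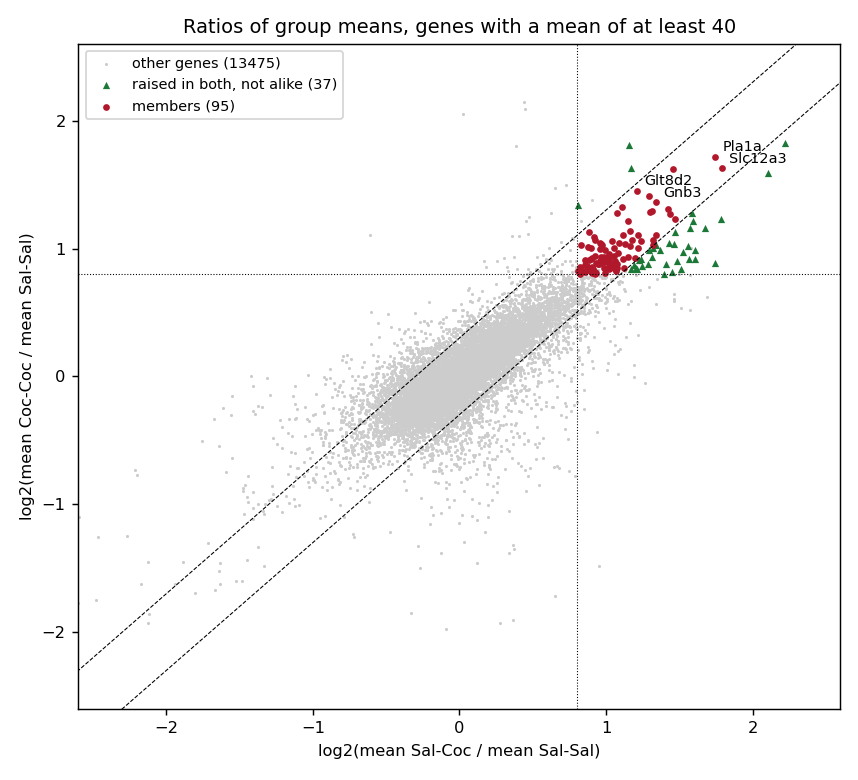
Ratio of group means on the log2 scale for genes with a mean of at least 40 normalised counts, Sal-Coc over Sal-Sal on the x axis and Coc-Coc over Sal-Sal on the y axis. Red points are the 95 chosen genes, green triangles the 37 genes that were raised in both but not alike, dotted lines the limits of 0.8 and dashed lines the limits of 0.3 between the cocaine groups. Of the triangles, 34 lie below the dashed band and 3 above it, and 8 of the 13607 genes fall outside the axes.

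The limit between the cocaine groups removed 37 genes that met every other part of the rule. In 34 of these the Coc-Coc mean was the lower one and in 3 the higher one. Their median ratio of Coc-Coc to Sal-Coc was -0.39 on the log2 scale, against -0.07 in the 95 genes. Among the 95, the Coc-Coc mean was below the Sal-Coc mean in 69 genes and above it in 26. In 45 of the 95 the 2 means lay within 0.1 on the log2 scale. Over all genes tested the median ratio of Coc-Coc to Sal-Coc was -0.007 on the log2 scale. The share of all genes with the lower mean in Coc-Coc was not counted, and the rule bounded this ratio. Nothing is therefore read from the direction in the 95 genes. Besides these 37 genes, 87 failed only the limit on the mean, 17 only the ratio of Sal-Coc and 86 only the ratio of Coc-Coc. Cyp4b1, a cytochrome P450, was the named gene just below the mean of 40, at 38.9, with ratios of 1.44 and 1.69 on the log2 scale. Across the ratio of Coc-Coc, LOC688452 lay just outside at 0.794. The mirror image of the rule, with every cocaine pool below every Sal-Sal pool, chose 35 genes. Among these were Jund, which encodes a subunit of the AP-1 transcription factor, with means of 2612, 1283 and 1432 normalised counts in Sal-Sal, Sal-Coc and Coc-Coc, and Basp1, which encodes a membrane protein of axon endings, with means of 2491, 1317 and 1169.8.

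Across all 15641 genes tested with edgeR, 10.6% were called higher in Sal-Coc than in Sal-Sal and 7.13% higher in Coc-Coc than in Sal-Sal (adjusted p under 0.05). Among the 95 genes the calls were 90 and 82. In 13.0% of all genes tested every cocaine pool lay above every Sal-Sal pool, which the rule required of all 95. The rule used these contrasts, so nothing is read from the counts. Between Coc-Coc and Sal-Coc edgeR's quasi-likelihood test called 0 of 15641 genes (0.0%), while 1453 genes (9.29%) had an unadjusted p under 0.05 and DESeq2 called 145 genes. Of the 95, 0 were called by either tool and 1 had an unadjusted p under 0.05, a contrast that the rule also limited. The Sal-Coc and Coc-Coc pools did not overlap in 12 of the 95 genes, against 17.2% of all genes tested. The rule's limit between the cocaine means makes such separation rarer, so nothing is read from this either.

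**Figure D2:**
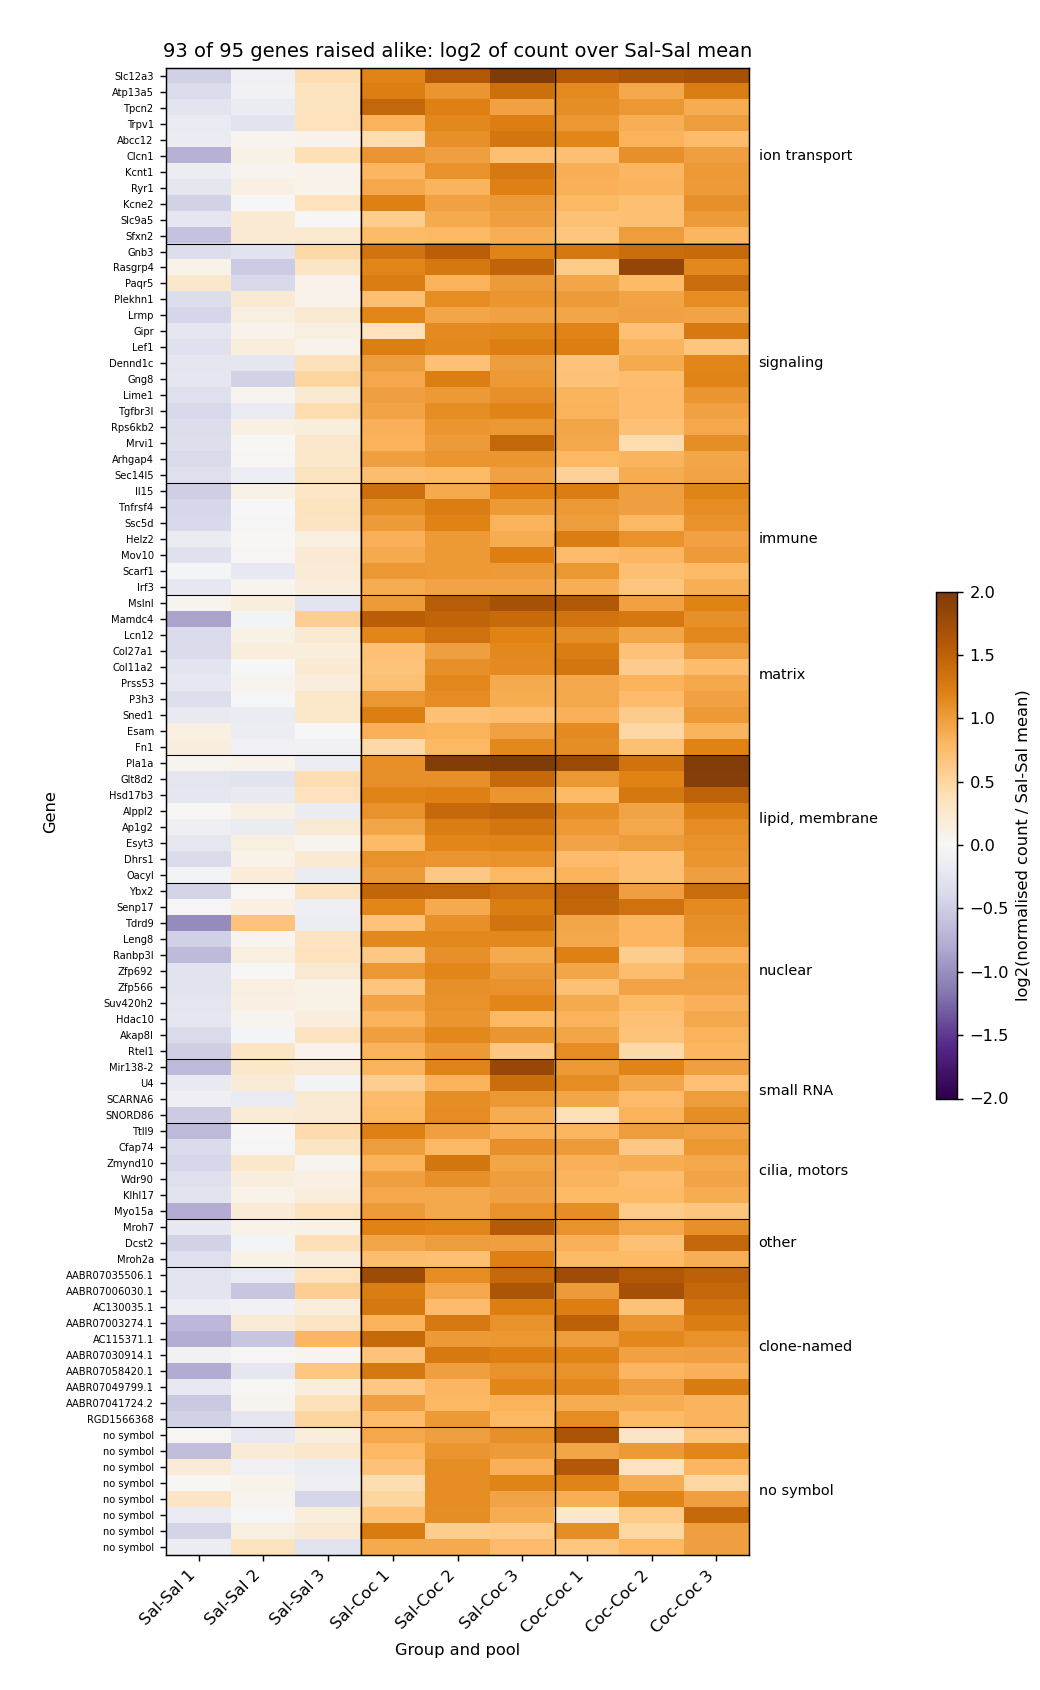
Normalised count of 93 of the 95 genes in each of the 9 pools, as log2 over the mean of the Sal-Sal pools, grouped by the role of the gene product. The colour scale ends at -2 and 2. All 6 cocaine columns are orange for every gene drawn, and Sal-Sal pool 1 is the palest or most violet column in most rows.

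The promoters of 3 raised genes with a promoter under their own symbol in the RefSeq table (assembly GRCr8) are shown. Each is the 250 bases before the start of the gene, read 5′ to 3′. Pla1a and Slc12a3 carry the largest ratios to Sal-Sal of the 95 genes. Rasgrp4 does not, as the smaller of its ratios was 1.29 on the log2 scale. That value was 1.46 in AABR07035506.1, 1.34 in Gnb3, 1.31 in Ybx2 and 1.29 in AABR07006030.1, whose promoters are not shown. Capitals mark the motifs found in a search of both strands for the CRE (TGACGTCA), the AP-1 site (TGANTCA), the E-box of clock proteins (CACGTG), the GC box (GGGCGG), the EGR site (GCGGGGGCG), the NRF1 core (GCATGCGC), the CCAAT box and the TATA box (TATAAA). The EGR site and the GC box can share letters. Pla1a is at chr11:75825376-75825625 on the plus strand, Slc12a3 at chr19:10675051-10675300 on the minus strand and Rasgrp4 at chr1:93560398-93560647 on the plus strand.
Pla1a: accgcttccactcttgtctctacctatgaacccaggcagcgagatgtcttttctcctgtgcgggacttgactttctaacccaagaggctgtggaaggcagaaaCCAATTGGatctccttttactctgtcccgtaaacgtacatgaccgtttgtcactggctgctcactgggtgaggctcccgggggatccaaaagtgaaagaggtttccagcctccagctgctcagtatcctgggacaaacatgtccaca
Slc12a3: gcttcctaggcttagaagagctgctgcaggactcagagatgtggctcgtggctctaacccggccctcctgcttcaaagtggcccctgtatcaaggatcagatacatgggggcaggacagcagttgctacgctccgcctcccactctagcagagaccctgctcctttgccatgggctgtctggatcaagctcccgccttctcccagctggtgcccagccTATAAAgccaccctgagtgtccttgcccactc
Rasgrp4: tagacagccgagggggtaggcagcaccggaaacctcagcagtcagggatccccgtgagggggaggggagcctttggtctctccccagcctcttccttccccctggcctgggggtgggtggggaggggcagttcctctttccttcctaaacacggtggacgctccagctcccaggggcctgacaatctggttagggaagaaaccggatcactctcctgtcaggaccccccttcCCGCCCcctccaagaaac
Pla1a held overlapping CCAAT boxes on both strands, 147 to 140 bases before the start, a motif found in 34.0% of 33469 promoters of this length. Slc12a3 held TATAAA 32 to 27 bases before the start (12.9% of promoters) and Rasgrp4 a GC box, GGGCGG, 18 to 13 bases before the start (30.5% of promoters). These shares count promoters with the motif anywhere in the 250 bases, not at the positions given. A match describes the letters only. Just 58 of the 95 genes had a promoter in the table, 61.1%, which is too few for a check of motifs or GC content over the genes as a group, so none is given.

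Pla1a, a phospholipase that acts on phosphatidylserine, showed the largest rise that both cocaine groups reached. Its normalised counts were 51.0, 51.2 and 44.7 in saline (Sal-Sal), 104, 190.5 and 199 after short exposure (Sal-Coc) and 167, 123 and 193 after repeated exposure (Coc-Coc). Its means rose from 49.0 ± 3.7 (SD, n = 3 pools) to 164 ± 52.8 and 161 ± 35.3, which is 3.36-fold and 3.29-fold. The Sal-Sal pools were nearly equal, while Sal-Coc pool 1 lay well below the other pools of its group. It was 1 of 8 chosen genes of lipid, steroid and membrane enzymes and traffic. Glt8d2, a glycosyltransferase, counted 245, 239 and 387 in Sal-Sal, 619, 618 and 780.5 in Sal-Coc and 598, 669 and 1120.3 in Coc-Coc, where pool 3 stood far above the others. Hsd17b3, a steroid dehydrogenase that makes testosterone, counted 24.4, 25.1 and 36.3, then 65.1, 66.2 and 59.5, then 49.1, 69.8 and 80.2 in the same order. Both were among the 26 genes whose Coc-Coc mean was the higher. Alppl2, an alkaline phosphatase, counted 31.3, 33.8 and 27.9 in Sal-Sal, 65.1, 83.8 and 86.5 in Sal-Coc and 66.9, 59.9 and 73.6 in Coc-Coc, with the lower cocaine mean in Coc-Coc. Ap1g2, a subunit of a clathrin adaptor complex, Esyt3, an extended synaptotagmin that tethers the endoplasmic reticulum to the plasma membrane, and Dhrs1, a short-chain dehydrogenase, rose 2.24-, 2.08- and 2.10-fold in Sal-Coc and 2.03-, 2.00- and 1.81-fold in Coc-Coc. Oacyl, a membrane-bound acyltransferase, was close to the limits at 0.82 and 0.86 on the log2 scale.

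A group of 12 genes encodes ion channels, pumps and transporters. Slc12a3, the thiazide-sensitive sodium chloride cotransporter best known from the kidney, counted 238, 309 and 440.4 in Sal-Sal, 742, 997 and 1681 in Sal-Coc and 976, 1019.6 and 1052 in Coc-Coc. Its Sal-Coc pools lay far apart, with an SD of 486 around a mean of 1139.8, whereas the Coc-Coc pools lay close together with an SD of 37.8 around 1016. The ratios were 3.46-fold and 3.09-fold.

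Potassium channel subunits were among them. Kcnt1, the pore-forming subunit of a sodium-activated potassium channel, was one of the most counted of all 95 genes. It reached 5752, 6601 and 6619 in Sal-Sal, 11088, 13338 and 15268 in Sal-Coc and 11579, 11099 and 12882 in Coc-Coc. Every cocaine pool was thus at least 1.5 times every saline pool. Kcne2, an accessory subunit of voltage-gated potassium channels, counted 38.3, 52.1 and 67.0, 121, 102 and 106 and 90.9, 87.1 and 111 in the same order of groups.

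Several calcium-permeable channels were among the raised genes. Trpv1, the capsaicin- and heat-gated cation channel, counted 144, 134 and 208 in Sal-Sal, 289.7, 359 and 378 in Sal-Coc and 331, 296 and 322 in Coc-Coc. Ryr1, a calcium release channel of intracellular stores, counted 748, 952 and 935, 1658, 1548 and 2028 and 1588, 1553 and 1764. Tpcn2, a cation channel of lysosomes, counted 289.9, 314 and 439.5, 945, 804 and 678 and 746, 711 and 638, with pool 1 the highest in both cocaine groups. In all of these genes the cocaine groups overlapped each other and both lay clear of saline. None of the 5 voltage-gated calcium channel subunits with an identifier, from a list of 24, was chosen, although 4 were called higher in Sal-Coc and 3 in Coc-Coc, against 10.6% and 7.13% of all genes tested. An identifier exists only where the study listed a gene as changed, which by itself raises the counts of calls in this and every other list below. Cacna1e, a subunit of R-type channels, was the exception with ratios of -0.38 and 0.34 on the log2 scale. It was not called against Sal-Sal in either group. Its ratio of Coc-Coc to Sal-Coc was 0.72 on the log2 scale, and the paper lists it as higher in that contrast. The folds of the other 4 were smaller than the rule asks, as in Cacna1d, a subunit of L-type channels, with ratios to Sal-Sal of 0.64 and 0.70 on the log2 scale.

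Clcn1, a voltage-gated chloride channel, counted 70.7, 127 and 156 in Sal-Sal, 246, 232 and 195 in Sal-Coc and 195, 252 and 233 in Coc-Coc. Slc9a5, a sodium and proton exchanger, counted 2163, 2929 and 2515, 3801, 4717 and 5002 and 4159, 4186 and 5103. Atp13a5, a transport ATPase of the P-type family, rose 2.32- and 2.15-fold from a Sal-Sal mean of 354 ± 86.5. Sfxn2, a carrier of the inner mitochondrial membrane, was the gene nearest to the limit in Sal-Coc with 0.81 on the log2 scale, and Lpin3, a phosphatidate phosphatase, fell just outside with 0.799.

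Abcc12, a transporter of the ATP-binding cassette (ABC) family, counted 46.4, 53.1 and 54.0 in Sal-Sal, 68.8, 109 and 126 in Sal-Coc and 115, 91.6 and 86.8 in Coc-Coc, and its Sal-Coc pool 1 lay closest to saline. Of 32 ABC transporters listed, 14 had an identifier and Abcc12 alone was chosen. Of the 14, 13 were called higher in Sal-Coc and 9 in Coc-Coc, counts raised by how identifiers were obtained, beside 10.6% and 7.13% of all genes tested. Abcg2, an efflux transporter of brain capillaries, fell just outside the rule with ratios of 0.80 and 0.91 on the log2 scale. Abcc6, another efflux transporter, rose more than any of the 95 genes in Sal-Coc, from 24.4, 32.8 and 43.8 in Sal-Sal to 157, 141 and 136, but stood at 111, 82.5 and 111 in Coc-Coc and was left out for that difference.

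**Figure D3:**
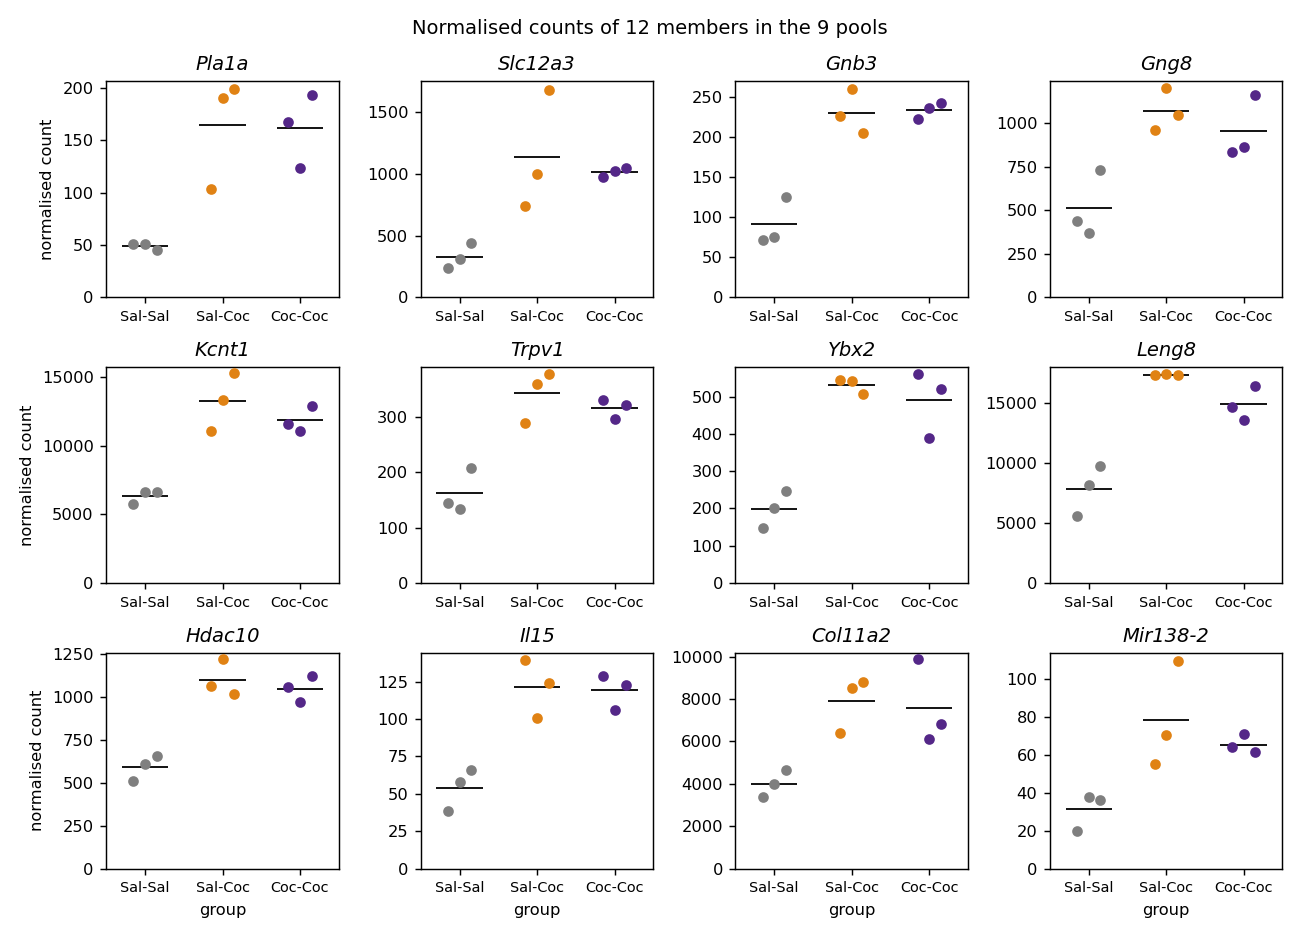
Normalised counts (y axis, from 0) of 12 of the chosen genes in the 3 groups (x axis). Each point is 1 pool and each line the mean of 3 pools. In each panel all 6 cocaine points lie above the 3 saline points, with Pla1a the widest and Mir138-2 among the narrower gaps.

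Of 15 G protein beta and gamma subunits listed, only Gnb3 and Gng8 had an identifier, and both were chosen. Beta and gamma subunits form the dimers through which many receptors, dopamine receptors included, act on channels and enzymes. Gnb3 counted 71.9, 75.3 and 126 in Sal-Sal, 226, 261 and 205 in Sal-Coc and 223, 237 and 242 in Coc-Coc, so that the cocaine groups were 2.54-fold and 2.57-fold above saline and almost equal to each other at 0.02 on the log2 scale. Gng8 counted 437, 372 and 731, 963, 1203 and 1046 and 834, 863 and 1166, with Sal-Sal pool 3 well above the other saline pools and not far below the lowest cocaine pool.

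Together with 13 others these genes make up receptors and intracellular signaling. Rasgrp4, an exchange factor that activates Ras, counted 76.5, 50.2 and 89.4 in Sal-Sal, 162, 176 and 200.0 in Sal-Coc and 111, 259 and 160.3 in Coc-Coc. Its Coc-Coc pools bracketed the whole Sal-Coc group, with pool 1 low and pool 2 high. Gipr, the receptor of the gut hormone GIP, counted 419, 511 and 537, 623, 1078 and 1089 and 1102, 796 and 1179.7, and Sal-Coc pool 1 lay near saline. Paqr5, a membrane progestin receptor, counted 68.4, 43.5 and 60.5, 137, 102 and 116 and 109.7, 98.0 and 151. Lef1, a transcription factor of Wnt signaling, counted 75.4, 103 and 96.8 in Sal-Sal, 215, 204 and 215 in Sal-Coc and 215, 162 and 146 in Coc-Coc, where pool 1 alone matched the Sal-Coc level. Mrvi1, a cGMP kinase substrate that binds the inositol trisphosphate receptor, was nearly excluded for its lower Coc-Coc mean, at -0.28 on the log2 scale between the cocaine groups. Lrmp, a membrane protein related to Mrvi1, stood at -0.08 with means of 559.9, 1138 and 1075 in Sal-Sal, Sal-Coc and Coc-Coc. Plekhn1, a lipid-binding protein with pleckstrin homology domains, was among the most counted genes of the group and reached 2205, 2890.1 and 2782 in Sal-Coc and 2688, 2569 and 2908 in Coc-Coc, over 1066, 1542 and 1408 in Sal-Sal. The other 6 genes of this group, Rps6kb2 (a kinase of ribosomal protein S6), Arhgap4 (a GTPase activator), Dennd1c (a Rab exchange factor), Tgfbr3l (a receptor related to TGF-beta coreceptors), Lime1 (an adaptor of lymphocyte receptors) and Sec14l5 (a lipid transfer protein), had ratios between 0.83 and 1.08 on the log2 scale in Sal-Coc and between 0.80 and 0.93 in Coc-Coc.

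A group of 7 genes encodes immune and antiviral factors. Il15 encodes a cytokine that acts on lymphocytes and is made by brain cells among others. It counted 38.3, 57.9 and 66.1 in Sal-Sal, 139, 100.4 and 124 in Sal-Coc and 129, 106 and 123 in Coc-Coc. Tnfrsf4, the costimulatory receptor OX40, counted 27.8, 36.7 and 46.6, 79.8, 88.0 and 75.7 and 75.2, 72.6 and 80.2, with less spread between cocaine pools than between saline pools. Irf3, the transcription factor that switches on interferon genes, was with Sec14l5 the gene nearest to the limit in Coc-Coc, at 0.80 on the log2 scale. It counted 1208, 1434 and 1547 in Sal-Sal, 2568, 2681 and 2702 in Sal-Coc and 2543, 2212 and 2540.5 in Coc-Coc, with pools close together within each group. Helz2, a helicase induced by interferon, was the only gene of the 7 with the higher mean in Coc-Coc, 257 ± 25.5 against 228 ± 14.5 in Sal-Coc and 121 ± 11.6 in Sal-Sal (SD, n = 3 pools each). Mov10, an RNA helicase with antiviral activity, rose 2.08- and 1.82-fold. Scarf1, a scavenger receptor, and Ssc5d, a secreted protein with scavenger receptor domains, rose by 1.02 and 1.02 on the log2 scale in Sal-Coc and by 0.85 and 0.96 in Coc-Coc. C1qb, a complement gene of microglia and the only one of 9 microglial markers with an identifier, had Sal-Sal, Sal-Coc and Coc-Coc means of 1604, 1097 and 1325.

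A group of 10 genes encodes matrix, adhesion and other extracellular proteins. Col11a2, a fibrillar collagen chain, counted 3371, 4007 and 4658 in Sal-Sal, 6399, 8502 and 8780 in Sal-Coc and 9863, 6101 and 6803 in Coc-Coc, where pool 1 was far above pools 2 and 3. Col27a1, another fibrillar collagen chain, had the same order of Coc-Coc pools, 3079.8, 2098 and 2587, over 996, 1450.4 and 1454 in Sal-Sal and 2119, 2561 and 2895 in Sal-Coc. P3h3, a prolyl hydroxylase that modifies collagens, counted 1964, 2408 and 2961, 4998, 5328 and 4528 and 4591, 4149 and 4756. Of 15 collagen genes with an identifier, 2 were chosen, Col11a2 and Col27a1. Fn1, fibronectin, counted 741, 629.6 and 634 in Sal-Sal, 916, 1159 and 1485 in Sal-Coc and 1438, 1110.3 and 1535 in Coc-Coc and had the higher mean in Coc-Coc. Esam, an adhesion molecule of endothelial cells, counted 241, 203 and 221, 399, 397 and 431 and 487, 308 and 390.4, with Coc-Coc pool 2 the lowest of the cocaine pools in both Esam and Col11a2.

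Markers of vascular cells were measured beside these genes. Of 8 endothelial markers only Flt1 and Vwf had an identifier, and their summed level was 1108 to 1616 normalised counts in Sal-Sal, 1927 to 2184 in Sal-Coc and 1548 to 2173 in Coc-Coc, so that Coc-Coc pool 2 fell within the saline range. Of 9 mural and fibroblast markers only Pdgfrb and Myh11 had one, and their sum was 1125 to 1349 in Sal-Sal, 1664 to 1871 in Sal-Coc and 1585 to 1903 in Coc-Coc. None of the 4 was at 0 in any pool, and the other markers of these lists were not analysed here. The part of vascular cells in the result was not tested.

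Among the markers of other cell types, 6 had an identifier, C1qb included. The astrocyte markers Slc1a2, a glutamate transporter, and S100b, a calcium-binding protein, were the identified ones of 9. Slc1a2 counted 20817, 17139 and 15419.7 in Sal-Sal, 11411, 7866 and 10164 in Sal-Coc and 20291, 16706 and 14456 in Coc-Coc, with all Sal-Coc pools below the other 6 pools. It was called lower in Sal-Coc (edgeR adjusted p = 0.0117), while in Coc-Coc it did not pass the test (edgeR adjusted p = 0.876). S100b had ratios of -0.52 and -0.23 on the log2 scale and was likewise called lower in Sal-Coc. Vcan, a matrix proteoglycan and the identified one of 6 markers of oligodendrocyte precursors, had ratios of -0.56 and -0.03 and was called lower in Sal-Coc, as was C1qb. Over all genes tested 5.86% were called lower in Sal-Coc. Hba-a2, a hemoglobin chain of red blood cells with a near-identical copy, was the identified one of 5 blood markers. It counted 38.3, 11.6 and 24.2, 21.1, 48.7 and 31.3 and 117, 59.9 and 139, and was called higher in Coc-Coc (edgeR adjusted p = 0.0276) with a ratio of 2.09 on the log2 scale. Pvalb, a calcium-binding protein and the identified one of 10 interneuron markers, was not called in either group. Between Sal-Coc and Coc-Coc edgeR called 0 of 15641 genes, so the lack of a call says nothing about these 6 markers. The paper lists Pvalb as lower in that contrast. The log2 ratios of Coc-Coc to Sal-Coc were 0.81 for Slc1a2, 0.29 for S100b, 0.53 for Vcan and 0.27 for C1qb. They were 1.64 for Hba-a2 and -0.74 for Pvalb. The part of these markers in the levels of the chosen genes was not tested.

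Among the less counted extracellular proteins, Mslnl, related to mesothelin, rose from 23.2, 25.1 and 18.6 in Sal-Sal to 44.9, 65.2 and 71.3 in Sal-Coc and 66.9, 43.5 and 50.9 in Coc-Coc, and was the named gene nearest to the lower limit of the mean. Mamdc4, an endosomal glycoprotein of epithelia, counted 12.8, 22.2 and 34.5, 66.9, 64.2 and 61.6 and 57.5, 56.2 and 49.0. Its saline pools differed widely, and pool 3 held 2.70 times as much as pool 1. Lcn12, a lipocalin that binds small lipophilic molecules, rose 2.36- and 2.09-fold. Prss53, a serine protease, and Sned1, a matrix protein, rose 1.91- and 1.88-fold in Sal-Coc and 1.85- and 1.79-fold in Coc-Coc.

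Nuclear proteins that act on RNA, chromatin or DNA are encoded by 12 of the genes. In 10 of these the Coc-Coc mean was the lower of the cocaine means, as in 69 of all 95 genes. Leng8 had the highest counts of all 95 genes, which are not corrected for gene length, with 5602, 8155 and 9734 in Sal-Sal, 17351, 17451 and 17378 in Sal-Coc and 14714, 13630 and 16472 in Coc-Coc. The Sal-Coc pools were almost identical, with an SD of 51.6, while the saline pools ranged widely. Akap8l, a nuclear protein related to kinase anchoring proteins, counted 5094, 6492 and 8336, 13097, 14738 and 13850 and 12695, 10638 and 11909. Zfp692, a zinc finger protein, counted 1119, 1368 and 1590.4, 2803, 3047 and 2734 and 2593, 2273 and 2632. These genes shared a low Sal-Sal pool 1 and a low Coc-Coc pool 2.

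Chromatin enzymes were represented by Hdac10 and Suv420h2. Hdac10, a deacetylase of class II known to act on polyamines, counted 508, 608 and 657 in Sal-Sal, 1059.8, 1222 and 1018 in Sal-Coc and 1054, 969.7 and 1118 in Coc-Coc. It was the only chosen gene among 5 with an identifier in a list of 20 genes of DNA methylation and histone deacetylation. Of these 5, 3 were called higher and 2 lower in Sal-Coc, and 2 were called higher in Coc-Coc. The limit on identifiers lifts these counts too, beside 10.6% higher and 5.86% lower in Sal-Coc and 7.13% higher in Coc-Coc over all genes tested. Dnmt3a, a DNA methyltransferase, rose less than the limit, by 0.72 and 0.65 on the log2 scale. Suv420h2, a histone methyltransferase of heterochromatin, counted 1026, 1326 and 1303, 2349.6, 2571 and 2723 and 2275, 2076 and 2194. None of 10 splicing regulators with an identifier, from a list of 24, was chosen, although all 10 were called higher in Sal-Coc and 9 in Coc-Coc, with the same limit on identifiers, beside 10.6% and 7.13% of all genes tested. Their ratios ran lower, as in Srsf5, an SR protein that promotes splicing, with 0.64 and 0.47 on the log2 scale. Snhg11, the only nuclear-retained long RNA with an identifier of 9 listed, had Sal-Sal, Sal-Coc and Coc-Coc means of 7581, 15691 and 10810.2, and was called higher in Sal-Coc, while in Coc-Coc it did not pass the test.

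Genes best known from germ cells also appeared. Ybx2, a Y-box protein that binds RNA in germ cells, counted 146, 201 and 248 in Sal-Sal, 545, 540.3 and 508 in Sal-Coc and 559, 390.1 and 521 in Coc-Coc, a rise of 2.68-fold and 2.47-fold. Tdrd9, a helicase of the piRNA pathway, counted 15.1, 49.2 and 27.9, 49.5, 65.2 and 76.8 and 58.5, 53.5 and 65.1. Here Sal-Sal pool 2 all but reached the lowest Sal-Coc pool, and the spread within saline was the largest of the 95 genes. Dcst2, a sperm membrane protein needed for fertilisation, counted 24.4, 32.8 and 43.8, 64.2, 67.3 and 65.9 and 60.6, 55.3 and 91.5. Senp17, a protease of the SUMO pathway, had the higher mean in Coc-Coc, 339 ± 39.4 against 292 ± 34.9 in Sal-Coc and 136 ± 11.2 in Sal-Sal. Rtel1, a helicase that protects telomeres, and Zfp566, a zinc finger protein, and Ranbp3l, a nuclear export factor, had ratios of 0.85, 0.95 and 0.88 in Sal-Coc and 0.82, 0.88 and 0.91 in Coc-Coc on the log2 scale.

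Cilia, the cytoskeleton and motors account for 6 of the genes. In all 6 the Coc-Coc mean was below the Sal-Coc mean, as in 69 of all 95 genes. Cfap74, a component of the ciliary axoneme, counted 312, 394 and 495 in Sal-Sal, 794, 691 and 846 in Sal-Coc and 802, 619 and 824 in Coc-Coc. Zmynd10, an assembly factor of ciliary dynein arms, counted 252, 402 and 348, 594, 823 and 639 and 599.9, 613 and 629. Ttll9, an enzyme of the family that modifies tubulin tails, counted 439, 705 and 949.8, 1614, 1372 and 1262 and 1213, 1392 and 1352. The saline pools of Ttll9 differed more than its cocaine pools did. Klhl17, a neuronal protein that binds actin filaments, counted 605, 774 and 817, 1376, 1378 and 1425 and 1253, 1254 and 1351 and was among the most even genes within groups. Wdr90, a protein of the centriole, rose 2.03- and 1.79-fold. Myo15a, an unconventional myosin of hair cells, stood 1.99- and 1.75-fold above Sal-Sal. None of 8 ependymal and choroid plexus markers had an identifier, so the level of ciliated cells could not be compared beside these values.

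The Coc-Coc mean was below the Sal-Coc mean in 69 of all 95 genes and in all 4 small RNA genes chosen. The libraries were made from polyadenylated RNA and read in 75 bases, so a count at such a gene is not a count of the small RNA itself, and reads of a host transcript cannot be told apart from it. Mir138-2 counted 19.7, 37.7 and 36.3 in Sal-Sal, 55.0, 70.4 and 109 in Sal-Coc and 63.7, 70.8 and 61.3 in Coc-Coc. Its hairpin lies at chr19:10680133-10680214 on the minus strand (GRCr8), and its mature sequences from RefSeq are shown with the seed, bases 2 to 8, in capitals.
miR-138-5p: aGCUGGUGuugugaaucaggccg
miR-138-2-3p: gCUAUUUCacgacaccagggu
The 5p sequence is shared by 2 hairpin genes. The Mir138-2 hairpin lies 5083 bases upstream of the start of Slc12a3, whose promoter is printed above, on the same chromosome and strand. Both genes were lowest in pool 1 and highest in pool 3 of Sal-Coc, and both varied little among the Coc-Coc pools. U4, a spliceosomal RNA with many near-identical copies, SCARNA6, a small Cajal body RNA, and SNORD86, a small nucleolar RNA, stood 1.96-, 1.96- and 1.91-fold above Sal-Sal in Sal-Coc and 1.91-, 1.86- and 1.75-fold above it in Coc-Coc. The copy behind U4 is uncertain for that reason.

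Position was not used by the rule. By the order of protein-coding genes in RefSeq (GRCr8), 3 pairs of chosen genes are direct neighbours, namely Ryr1 with Rasgrp4, Gnb3 with P3h3 and Plekhn1 with Klhl17, and the members of these pairs do not overlap. How many such pairs an equal number of other genes would hold was not counted, so nothing is read from the 3. Ryr1 and Rasgrp4 lie on opposite strands, while Plekhn1 and Klhl17 lie on the same strand. The strands of Gnb3 and P3h3 were not compared. The ratios of neighbours were not always close, with 0.99 and 0.90 on the log2 scale for Ryr1 against 1.32 and 1.29 for Rasgrp4 in Sal-Coc and Coc-Coc. Plekhn1 and Klhl17 were closer, at 0.97 and 1.02 against 0.93 and 0.81. Helz2, Rtel1 and Lime1 also lie within a few genes of each other, with 1 gene between the first pair and 3 between the second pair.

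A further 10 genes have a clone-based or provisional name and 8 have no symbol. AABR07035506.1 rose most among them, from 20.9, 22.2 and 31.7 in Sal-Sal to 84.3, 53.8 and 67.0 in Sal-Coc and 83.6, 75.3 and 70.7 in Coc-Coc. AABR07006030.1 counted 102, 82.1 and 182, 287, 229.8 and 379 and 246, 393 and 332. AC115371.1 and AABR07058420.1 had some of the widest saline groups, since Sal-Sal pool 3 held 2.99 and 2.72 times the count of pool 1. RGD1566368 counted 203, 239 and 395, 470.3, 565 and 480.0 and 603, 475 and 495. The other 5 of the 10, AC130035.1, AABR07003274.1, AABR07030914.1, AABR07049799.1 and AABR07041724.2, had ratios from 0.87 to 1.11 in Sal-Coc and from 0.86 to 1.28 in Coc-Coc on the log2 scale. The 8 genes without a symbol had ratios between 0.85 and 0.99 in Sal-Coc and between 0.81 and 1.05 in Coc-Coc on the log2 scale and were all counted low, with means from 42.7 to 269 normalised counts. The remaining named genes were Mroh7 and Mroh2a, proteins with HEAT repeats. Mroh7 lay just inside the limit between the cocaine groups, at -0.30 on the log2 scale, with 557, 679 and 684 in Sal-Sal, 1469, 1439.9 and 1894 in Sal-Coc and 1346, 1208 and 1355 in Coc-Coc. Stab1, a scavenger receptor, and Cmtm8, a membrane protein of the chemokine-like factor family, lay just outside it at -0.31. Mroh2a had ratios of 0.91 and 0.81 on the log2 scale.

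The rule set no order of pools within a group, but it used the same values. A low saline pool lowers the Sal-Sal mean and so makes a gene easier to choose. The order of pools is therefore a description, not evidence apart from the choice. Most of the raised genes shared an order in saline. Sal-Sal pool 1 was the lowest saline pool in 74 of 95 genes, against 32.8% of all genes with a mean of at least 40, and pool 3 the highest in 69 genes, against 36.5%. The median of the 95 genes relative to the Sal-Sal mean was -0.28, 0.04 and 0.22 on the log2 scale in Sal-Sal pools 1, 2 and 3. It was 0.94, 1.08 and 1.07 in the Sal-Coc pools. The Coc-Coc pools had 0.99, 0.82 and 1.01. Coc-Coc pool 2 was the lowest of its group in 56 genes, against 27.7% of all genes. Sal-Coc pool 1 was the lowest of its group in 54 genes, against 40.9%. Pool 3 was the highest of its group in 43 genes in Sal-Coc, against 30.6%, and in 51 in Coc-Coc, against 35.9%. The median of all genes lay between -0.03 and 0.00 in each pool. In most of the 95 genes Sal-Sal pool 3 thus lay nearest to the cocaine pools and pool 1 farthest from them.

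**Figure D4:**
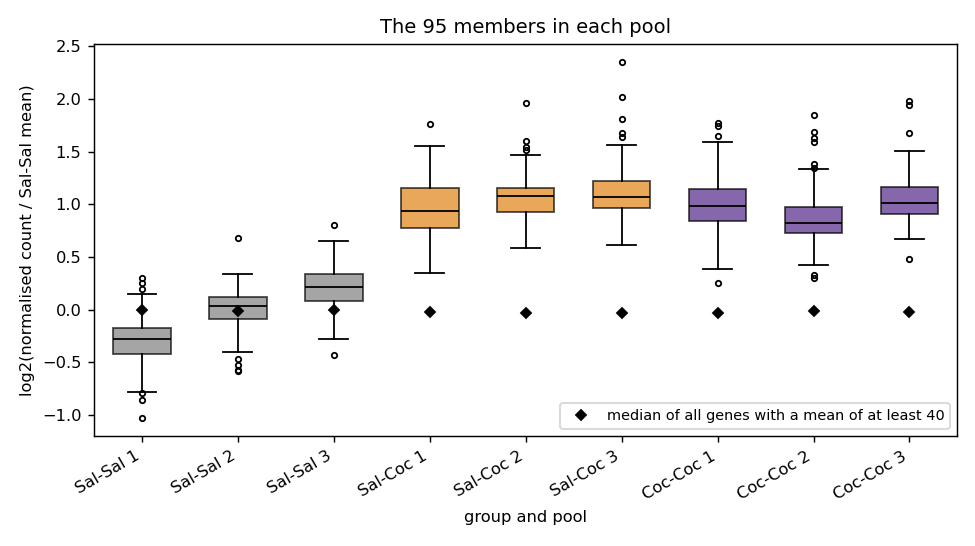
Distribution of the 95 genes in each pool, as log2 of the normalised count over the Sal-Sal mean (y axis). Boxes span the quartiles, lines are medians, whiskers reach 1.5 times the interquartile range, circles are genes beyond it and diamonds the median of all genes with a mean of at least 40. The median of the chosen genes lies at -0.28 in Sal-Sal pool 1 and 0.22 in Sal-Sal pool 3, and between 0.82 and 1.08 in the cocaine pools.

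The spread of the chosen genes was widest in saline. The highest saline pool was a median 1.51 times the lowest, against 1.28 times in Sal-Coc and 1.23 times in Coc-Coc, where all genes tested with a mean of at least 40 had 1.20, 1.19 and 1.15 times. That comparison was not matched for depth, and the median of the chosen genes' means was 256 normalised counts. The group with the widest spread was Sal-Sal in 57 genes, Sal-Coc in 25 and Coc-Coc in 13. The 10 most counted genes of each pool took 18.0% of the counts in Sal-Sal pool 1 and between 10.3% and 16.7% in the other pools, so pool 1 also stood at one end by this measure. Its size factor, 0.862, was the lowest of the 9 pools. The part of library composition in the order of the saline pools was not tested.

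Because the choice rests on 3 pools per group, it moved with single pools. Without Sal-Sal pool 1 the rule chose 56 genes, 44 of them among the 95, and without Sal-Sal pool 3 it chose 213, with 91 of the 95. When 1 of the 9 pools was dropped at a time, 20 genes were chosen in all 9 cases. They included Pla1a, Gnb3, Kcnt1, Trpv1, Ybx2, Il15, Tnfrsf4, Helz2, Paqr5, Plekhn1, Esyt3, Ap1g2, Atp13a5, Hsd17b3, Lcn12, Mamdc4 and SCARNA6, and thus genes of most of the roles above. None of the 6 genes of cilia, the cytoskeleton and motors was among the 20, and none of the 6 was chosen without Sal-Sal pool 1. Leng8, Akap8l, Zfp692, Hdac10 and Suv420h2, of the nuclear proteins, were also not chosen without that pool. Slc12a3 was not among the 20 either, as it was not chosen without Sal-Coc pool 1. The calls against saline depended on the pools as well, most of all those of Coc-Coc, where 82 calls became 36 without Sal-Sal pool 1, 38 without Coc-Coc pool 2 and 0 without Coc-Coc pool 3.

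**Figure D5:**
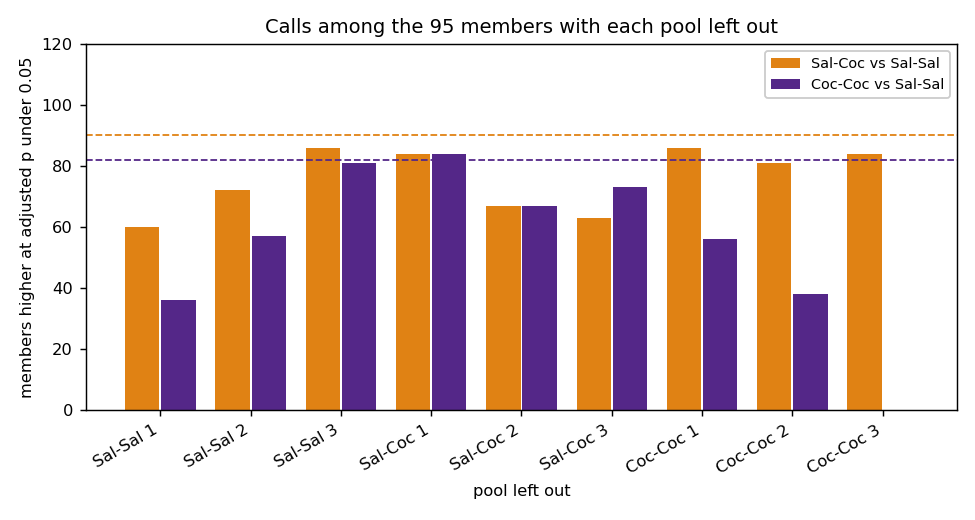
Number of the 95 genes called higher than in Sal-Sal by edgeR at an adjusted p under 0.05 (y axis) with each pool left out in turn (x axis), for Sal-Coc in orange and Coc-Coc in violet. Dashed lines give the calls with all pools, 90 and 82. The orange bars stay between 60 and 86, and the violet bars range from 0 to 84.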

How the data were processed

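The deposited values are raw counts of reads on Ensembl genes (release 84), in 36 tables, 4 technical replicates for each of 9 pools. The authors prepared poly(A) libraries with a stranded kit, sequenced 75-base single reads (bcl2fastq 2.17.1.14), aligned them with STAR, dropped multiply mapped reads and counted with HTSeq 0.5.3 inside Eoulsan, per the labels, processing notes and methods. The strand setting of the counting is not given in the sources used here, so genes on opposite strands of the same locus may share reads.

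The 4 tables of a pool were added up, because they varied about as much as counting error gives (chi-square per degree of freedom 1.0037 to 1.0225, against 33.1 to 52.0 between pools of a group). Pools are the unit of replication. The labels and methods name nothing beyond the rats that separates the pools of a group, and they give no batches of dissection, extraction or library. The main test was the quasi-likelihood test of edgeR 4.0.16 under R 4.3.3 (TMM factors, filterByExpr, 1 fit of the 9 pools, Benjamini-Hochberg adjusted p under 0.05). Other normalizations, no filter, DESeq2 1.42.0, the pool number as a block and leaving out each pool were the alternatives. Symbols were joined where a published ratio of group means matched 1 identifier to 6 significant digits. Of 1539 published symbols 33 could not be joined, and after a shift of the ratios by 0.1% at most 3.54% met any identifier. Of the 87 named genes, 80 matched by 2 or 3 ratios and 7 by 1. Promoters and microRNAs come from RefSeq (GRCr8). The authors' own comparison columns served the join alone.

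The chosen genes, the gene lists and the role groups were set with earlier results of these data known. The text names the 12 genes with the largest smaller ratio, the 8 most counted, those in a list, those next to a limit, the 2 most counted of each family with 3 or more, the 4 with the widest spread within a group, and the rest by role, apart from 2 genes that are not reported here. Dorsal striatum, behaviour and human data were not analysed here.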

Additional observations from a re-analysis of the deposited data

How the results depend on the processing

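Under the other normalizations, without a filter, with DESeq2 and with a replicate block for pool numbers, the members called higher than Sal-Sal stayed within 1.5 times the main counts, at 79 to 93 of 95 in Sal-Coc and 71 to 91 in Coc-Coc. The replicate block gave 79 and 71, against 90 and 82 without it. Pool numbers recur in each group. Over all genes tested, the deviations of same-numbered pools had a mean correlation of -0.024 over 9 pairs, from -0.341 to 0.252. Pairs with other numbers had 0.013 over 18 pairs, from -0.326 to 0.459. These values do not cover the 95 genes alone, and whether same-numbered pools shared a batch was not tested. With each pool left out the calls ranged from 60 to 86 in Sal-Coc and from 0 to 84 in Coc-Coc. The 0 came without Coc-Coc pool 3, where edgeR called 0 of 15860 genes in all and 3533 had an unadjusted p under 0.05. The cause was not tested. Between Coc-Coc and Sal-Coc 0 members were called under any alternative, while over all genes edgeR without a filter called 5 and DESeq2 145. The rule chose 95 genes with TMM factors (93 shared), 80 with upper-quartile factors, 117 with library totals, 116 on technical replicate a alone (63 shared) and 148 with a mean of at least 10. With each pool left out it chose 56 to 213 genes, with 162 without Sal-Sal pool 2. No member's log2 fold change against Sal-Sal changed sign under any alternative. The rule largely fixed this in advance, as it asked for every cocaine pool above every Sal-Sal pool. Low depth limits the 28 members with a mean under 100 normalised counts, where counting error alone is appreciable.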
